A study of Mus musculus with 4 samples.

Results

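Genes that move calcium and magnesium ions across the distal nephron were followed in single-cell RNA-Seq of whole mouse kidneys. They were taken by symbol and are 10 of the 32285 genes in the count tables: Calb1, S100g, Trpv5, Trpm6, Slc8a1, Atp2b1, Pvalb, Cldn16, Cldn19 and Casr. Each matched 1 gene identifier. Their levels were read in cells of the thick ascending limb, the early distal tubule and the late distal tubule, which were assigned from UMIs of marker genes that are not members.

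The series compared WT mice with mice homozygous for Sweet Pee (SP), a missense mutation in Slc5a2 that leaves no working SGLT2, the glucose transporter of the proximal tubule. All mice were C3H males aged 18 weeks at harvest. They received normal diet (ND) or high-fat diet (HFD, 60% of calories from fat) for the last 8 weeks, from week 10. The libraries are named by genotype and diet (WT-ND, WT-HFD, SP-ND, SP-HFD), and lists of 4 values below follow that order. The mutation is present in every cell of SP mice, and the number of animals behind a library is not given in the sources used here. Each condition is 1 library, so no difference has a replicate check, no p-value is given, and animal, dissociation and library cannot be told apart from diet or genotype.

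In the kidney, calcium left in the distal tubule is reclaimed through the cell. The channel TRPV5 admits calcium at the luminal membrane, the buffers calbindin-D28k (Calb1) and calbindin-D9k (S100g) carry it through the cytosol, and the sodium-calcium exchanger NCX1 (Slc8a1) and the pump PMCA1 (Atp2b1) move it out toward the blood. Magnesium enters early distal cells through TRPM6, in cells that hold the buffer parvalbumin (Pvalb), whereas in the thick limb both ions pass between the cells through pores built of claudin-16 and claudin-19, under the calcium-sensing receptor (Casr). Parathyroid hormone and vitamin D are known regulators of the transcellular calcium genes.

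The promoters of 3 of the 4 members that differed together between libraries are shown because the comparisons below turn on them. Calb1, the other of these members, had no entry among the promoters used. Each line holds the 250 bases before the RefSeq start of the gene (build GRCm38.p6), 5′ to 3′. Capitals mark AGGTCA, the half-site read by many nuclear receptors, or TATAAA, the TATA box, searched on both strands.
S100g (chrX:162964600-162964849, minus strand): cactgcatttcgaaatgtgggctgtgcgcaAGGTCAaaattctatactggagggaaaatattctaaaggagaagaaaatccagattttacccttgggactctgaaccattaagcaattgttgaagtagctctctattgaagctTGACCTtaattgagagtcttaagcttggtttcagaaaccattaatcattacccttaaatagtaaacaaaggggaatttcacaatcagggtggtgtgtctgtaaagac
Slc8a1 (chr17:81738388-81738637, minus strand): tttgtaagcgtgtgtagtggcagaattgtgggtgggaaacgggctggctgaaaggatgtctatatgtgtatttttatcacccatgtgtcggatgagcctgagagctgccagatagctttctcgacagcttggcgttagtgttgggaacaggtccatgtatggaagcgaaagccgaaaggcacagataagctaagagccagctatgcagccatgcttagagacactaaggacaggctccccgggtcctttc
Trpv5 (chr6:41680724-41680973, minus strand): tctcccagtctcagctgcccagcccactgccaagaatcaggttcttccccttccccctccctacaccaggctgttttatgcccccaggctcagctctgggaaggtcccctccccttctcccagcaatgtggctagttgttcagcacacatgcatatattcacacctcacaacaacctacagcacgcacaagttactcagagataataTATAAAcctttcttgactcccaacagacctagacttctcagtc
The S100g window held 2 AGGTCA matches, 1 on each strand, the Trpv5 window held 1 TATAAA match, and the Slc8a1 window held neither. The Trpv5 match was at -43 to -38 from the RefSeq start. The annotation used for gene positions below starts Trpv5 at 41680769, inside this window and upstream of the match. Of 32851 promoter windows of this length, 14.0% held AGGTCA and 12.4% held TATAAA. The 2 motifs share no matched bases here. A match is a run of letters and not a bound site, and no match says only that the letters are not in the window.

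The libraries held 13229 to 16385 barcodes and 90728590 to 115117649 UMIs. Library pairs shared 54 to 77 barcodes and 0 barcodes were in all 4. After filtering, 6754 to 10869 cells were left, with 32.7% to 49.8% of barcodes left out for mitochondrial UMIs, more in the SP libraries than in the WT libraries. The thick limb class held 993 to 1219 cells per library, the early distal class 496 to 707 and the late distal class 287 to 335. Levels are UMIs of a gene per 1000000 UMIs of a class (CPM), with exact 95% intervals that cover counting error only. In a pooled class, fewer cells of a type and less RNA per cell cannot be told apart.

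The class names were checked with genes kept out of the assignment. Cldn10, a claudin of the thick limb, was at 830 to 1329 CPM in the thick limb class and at 12.3 to 124 CPM in the distal classes. Hsd11b2, the enzyme that guards aldosterone-responsive cells from corticosterone, was at 265 to 771 CPM in the late distal class and lower in both other classes of every library. Wnk1 was high in both distal classes (1449 to 2823 CPM) and lower in the thick limb (321 to 490 CPM), whereas Egf was highest in the thick limb and Stk39 was similar in all 3 classes, so these 2 genes did not separate the early distal class. The late distal class joins the end of the convoluted tubule and the connecting tubule. Of its cells, 118 to 156 per library held Slc12a3, the thiazide-sensitive cotransporter of the convoluted tubule. These had at least 3 Slc12a3 UMIs and 2 times the library mean.

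In the cells kept, the late distal class of WT-HFD stood apart. Its summed thick limb markers (Slc12a1, Umod, Ppp1r1b) were at 1298 CPM, against 217 CPM in the other WT library and 323 and 457 CPM in the SP libraries on ND and HFD. These sums depend on a rule, added after levels had been seen, that left out distal cells with Slc12a1. It left out 7 late distal cells on ND and 23 on HFD in WT, but 66 on ND and 68 on HFD in SP. Sums with those cells kept were not compared. The 6 proximal tubule markers summed to 1326 CPM in WT-HFD, against 577, 167 and 131 CPM in WT-ND, SP-ND and SP-HFD. Podocyte markers summed to 111 CPM, against 6.52, 7.35 and 36.5 CPM. Endothelial markers were at 90.7 CPM, against 12.2, 54.1 and 72.6 CPM, and macrophage or dendritic markers at 140 CPM, against 41.3, 24.0 and 18.7 CPM. Principal and intercalated cell markers were highest in SP-HFD instead, at 524 and 601 CPM, against 445 and 462 CPM in WT-HFD. Its own markers were lower: Klk1 was at 2806 CPM, against 6252 CPM in the other WT library and 10595 to 10646 CPM in the SP libraries, and Scnn1b, a subunit of the sodium channel ENaC, was at 96.4 CPM, against 172 to 212 CPM elsewhere. Hsd11b2 was also lowest there. In early distal cells, WT-HFD was also highest for proximal tubule markers, at 691 CPM against 512, 182 and 132 CPM. The same held for macrophage or dendritic markers, at 80.1 CPM against 8.76, 14.4 and 28.2 CPM. Principal cell markers were at 140 CPM there, against 56.9, 71.3 and 69.8 CPM, and intercalated cell markers at 142 CPM, against 73.5, 96.3 and 64.8 CPM. Podocyte markers were at 49.0 CPM, against 21.9, 7.46 and 8.99 CPM, and endothelial markers at 57.8 CPM, against 54.5, 28.1 and 13.7 CPM. Thick limb markers in early distal cells were highest in SP-HFD, at 5262 CPM, against 3915 CPM in WT-HFD. The part of these differences in the results below was not tested beyond the alternatives given beside them.

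S100g, which encodes calbindin-D9k (chromosome X, 162961992 to 162964599, minus strand, overlapped by Ctps2 on the plus strand), was at 33983 CPM in late distal cells of WT on ND (95% interval 33746 to 34222) and 12305 CPM on HFD (12166 to 12445), and 37177 CPM in SP on ND (36943 to 37413) and 19339 CPM on HFD (19151 to 19529). Both HFD libraries lay below both ND libraries. The WT-HFD level was 2.76-fold below WT-ND, a log2 ratio of -1.47 (95% interval -1.48 to -1.45). Of 8931 genes compared there, 23 had a lower ratio. The SP-HFD level was 1.92-fold below SP-ND, a log2 ratio of -0.94 (-0.96 to -0.93).

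The difference in S100g was spread over the cells. Within WT-ND the late distal cells ran from 5101 at the 10th percentile to 61782 at the 90th, in CPM of the cell, with a median of 29866. The median was 5598 in WT-HFD and, in SP, 36036 on ND and 11460 on HFD. The lower quartile of WT-HFD cells was 1770, and that of WT-ND cells was 13100.

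Calb1, which encodes calbindin-D28k (chromosome 4, 15881264 to 15908064, plus strand), had the same order of libraries. Late distal cells held 4079 CPM in WT on ND and 1661 CPM on HFD, and 5575 CPM in SP on ND and 2758 CPM on HFD. The HFD libraries were again below both ND libraries. On the log2 scale WT-HFD against WT-ND was -1.30 (-1.35 to -1.24) and SP-HFD against SP-ND was -1.02 (-1.06 to -0.97). The share of late distal cells with a Calb1 UMI, after each cell was thinned to 1000 UMIs, was 77.2% in WT on ND and 59.3% on HFD, and 81.9% in SP on ND and 66.7% on HFD, against 0.977% to 10.5% in T, NK and B cells.

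Slc8a1, the basolateral exchanger (chromosome 17, 81373105 to 81738377, minus strand, overlapped by 2 gene models on the plus strand), was at 3643 CPM in WT on ND and 1820 CPM on HFD, and 4110 CPM in SP on ND and 2731 CPM on HFD. The log2 ratio for diet in WT was -1.001, with an interval of -1.05 to -0.95. For diet in SP it was -0.59 (-0.64 to -0.54), the latter 1.51-fold and so just past the 1.5-fold line. It stayed past that line in 9 of 13 alternatives. In late distal barcodes left out for their mitochondrial share, Slc8a1 had a log2 ratio for diet of 0.01 in WT (-0.08 to 0.11) and -0.53 in SP, per non-mitochondrial UMI. Slc8a1 in cells was lowest in WT-HFD as well, with a median of 1010 CPM per cell, against 2681 in the other WT library and 2838 and 1574 in SP on ND and HFD.

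Trpv5, the entry channel (chromosome 6, 41652173 to 41680769, minus strand), rested on 94 to 240 UMIs per library. It was at 84.7 CPM in WT on ND (73.3 to 97.5) and 38.6 CPM on HFD (31.2 to 47.2), and 92.8 CPM in SP on ND (81.4 to 105) and 63.9 CPM on HFD (53.5 to 75.8). WT-HFD was the lowest, and its interval overlapped none of the others. Its log2 ratio for diet in WT was -1.14 (-1.51 to -0.77), and for diet in SP it was -0.54 (-0.85 to -0.23), under the 1.5-fold line.

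Atp2b1, which encodes the calcium pump PMCA1 (chromosome 10, 98914406 to 99026143, plus strand), was the late distal member without such a difference. It was at 78.7, 78.8, 90.5 and 78.8 CPM in the 4 libraries, with intervals that all overlapped. Its log2 ratio for diet was 0.00 in WT, and the interval of -0.30 to 0.30 leaves out a 1.5-fold difference. Unlike the other 4, Atp2b1 was not highest in the distal nephron: its level was 58.1 to 111 CPM in every tubule class, and 198 to 296 CPM in stromal cells. T, NK and B cells held Atp2b1 at 87.6, 62.4, 166 and 51.1 CPM in the 4 libraries. Atp2b4, another calcium pump gene and not a member, was singled out after its values were seen. In late distal cells Atp2b4 was at 184 CPM in WT on ND and 118 CPM on HFD, and 220 CPM in SP on ND and 197 CPM on HFD.

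A member was counted as past the fold when its CPM differed by at least 1.5-fold between 2 libraries, with an interval that left out 0 on the log2 scale, in the class where it is known to act. Under HFD, 4 of the 10 members were lower in WT (S100g, Calb1, Slc8a1 and Trpv5, all late distal) and 0 were higher. Of all genes compared in late distal cells, 5.11% were lower by this rule and 12.6% were higher. The shares were 4.05% and 5.89% in early distal cells and 4.45% and 3.63% in the thick limb. In SP, 3 members were lower under HFD (S100g, Calb1 and Slc8a1) and 1 was higher (Pvalb, in early distal cells). Of all genes, 1.85% were lower and 6.69% higher in late distal cells, 3.22% and 5.0% in early distal cells, and 3.63% and 4.65% in the thick limb. Whether the diet difference itself differed by genotype cannot be tested with these libraries.

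**Figure D1:**
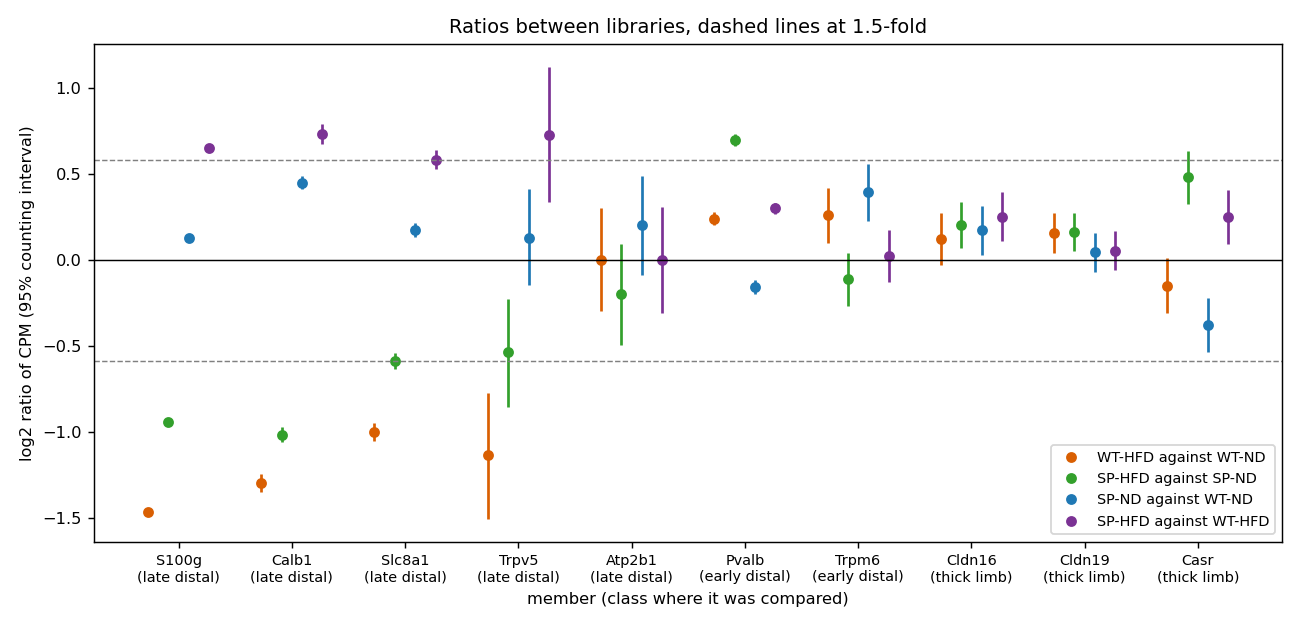
Log2 ratio of CPM between libraries (y axis) for the 10 members (x axis), each in the class named under it. Points are ratios, bars are 95% counting intervals and dashed lines mark 1.5-fold. S100g, Calb1, Slc8a1 and Trpv5 lie below 0 for diet in both genotypes, whereas Atp2b1, Cldn16 and Cldn19 lie within the dashed lines in all 4 comparisons.

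The late distal class was also divided by Slc12a3, at the same minimum of 3 UMIs and 2 times the library mean. Cells called without it could thus hold fewer UMIs of it, and were used only with a UMI of Scnn1b or Scnn1g. Cells with and without it numbered 156 and 129 of 335 in WT-ND, and 118 and 103 of 315 in WT-HFD. In SP they numbered 124 and 113 of 313 on ND, and 152 and 93 of 287 on HFD. The remaining cells were in neither division. In cells with Slc12a3, S100g was at 35976 CPM in WT on ND and 15809 CPM on HFD, and 36158 CPM in SP on ND and 22605 CPM on HFD. In cells without it but with Scnn1b or Scnn1g, S100g was at 33517, 10830, 38722 and 14180 CPM in the same order. The HFD libraries were below the ND libraries in both divisions. Calb1 was higher in the cells with Slc12a3 in every library (5705 against 2074 CPM in WT-ND, for example), and for diet in SP its log2 ratio was -1.04 in cells with Slc12a3 and -1.73 in cells without it. In cells without Slc12a3, Trpv5 was at 90.3 CPM in WT-ND and 25.9 CPM in WT-HFD, and in cells with it at 87.4 and 57.2 CPM.

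**Figure D2:**
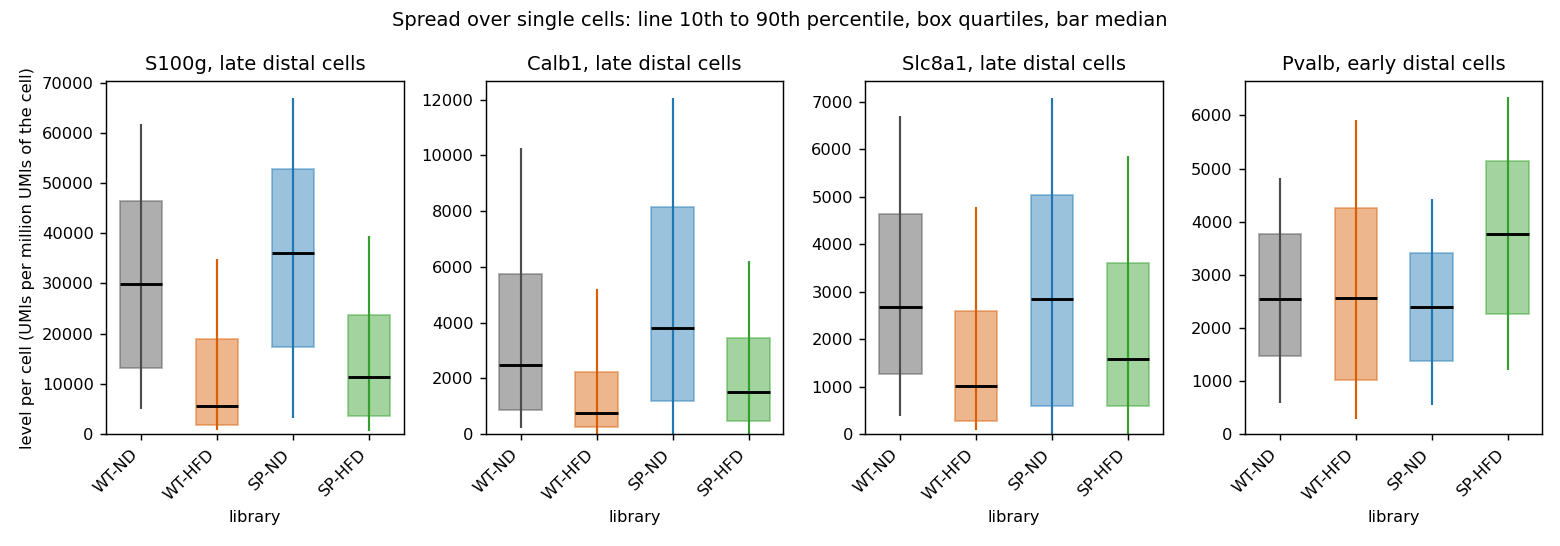
Level per cell, as CPM of the cell (y axis), in the 4 libraries (x axis), for S100g, Calb1 and Slc8a1 in late distal cells and Pvalb in early distal cells. Lines span the 10th to 90th percentile of cells, boxes the quartiles, and black bars the median. The medians of the 3 late distal genes are lower in both HFD libraries than in both ND libraries, and the Pvalb median is highest in SP-HFD, at 3774.

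Between genotypes on ND, 0 of the 10 members passed the fold. Of all genes, 2.66% were higher and 4.05% lower in SP-ND in late distal cells, 1.77% and 4.34% in early distal cells, and 2.64% and 5.59% in the thick limb. Calb1 had the largest difference of the 10, with a log2 ratio of 0.45 (0.41 to 0.49). S100g differed by 0.13 (0.12 to 0.14), Slc8a1 by 0.17 (0.13 to 0.22) and Trpv5 by 0.13 (-0.15 to 0.41).

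Between genotypes on HFD, 4 members were higher in SP-HFD than in WT-HFD and 0 were lower, where 8.95% of all late distal genes were higher and 9.33% were lower. The shares were 2.81% and 6.23% in early distal cells and 1.27% and 3.85% in the thick limb. The log2 ratios were 0.73 for Calb1 (0.67 to 0.79), 0.73 for Trpv5 (0.34 to 1.13), 0.65 for S100g (0.63 to 0.67) and 0.59 for Slc8a1 (0.53 to 0.64). Slc8a1, at 1.50005-fold, was at the 1.5-fold line itself. The ratio stayed past that line in 4 of 13 alternatives for Slc8a1, 6 for S100g, 8 for Calb1 and 9 for Trpv5. The count of 4 members rests on how the late distal class was drawn. Cells that held both Klk1 or ENaC markers and Slc12a1, the thick limb cotransporter, were left out, a rule chosen after the members' levels had been seen. It left out 7 cells on ND and 23 on HFD in WT, but 66 on ND and 68 on HFD in SP. With those cells kept, 0 members passed the fold, and the ratios of S100g and Calb1 were 0.38 and 0.48. With a stricter marker minimum the count was also 0. The 4 genes were higher in SP-HFD than in WT-HFD under all 13 alternatives, except Calb1 in cells without Slc12a3, at -0.037. The order was the reverse in late distal barcodes that the mitochondrial filter left out, which numbered 124 on ND and 125 on HFD in WT, and 129 on ND and 197 on HFD in SP. There SP-HFD was below WT-HFD for all 4 genes, with log2 ratios, per non-mitochondrial UMI, of -0.34 for Calb1 (-0.47 to -0.21), -0.46 for Slc8a1 (-0.55 to -0.37), -0.11 for S100g (-0.16 to -0.06) and -0.45 for Trpv5 (-1.18 to 0.28).

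**Figure D3:**
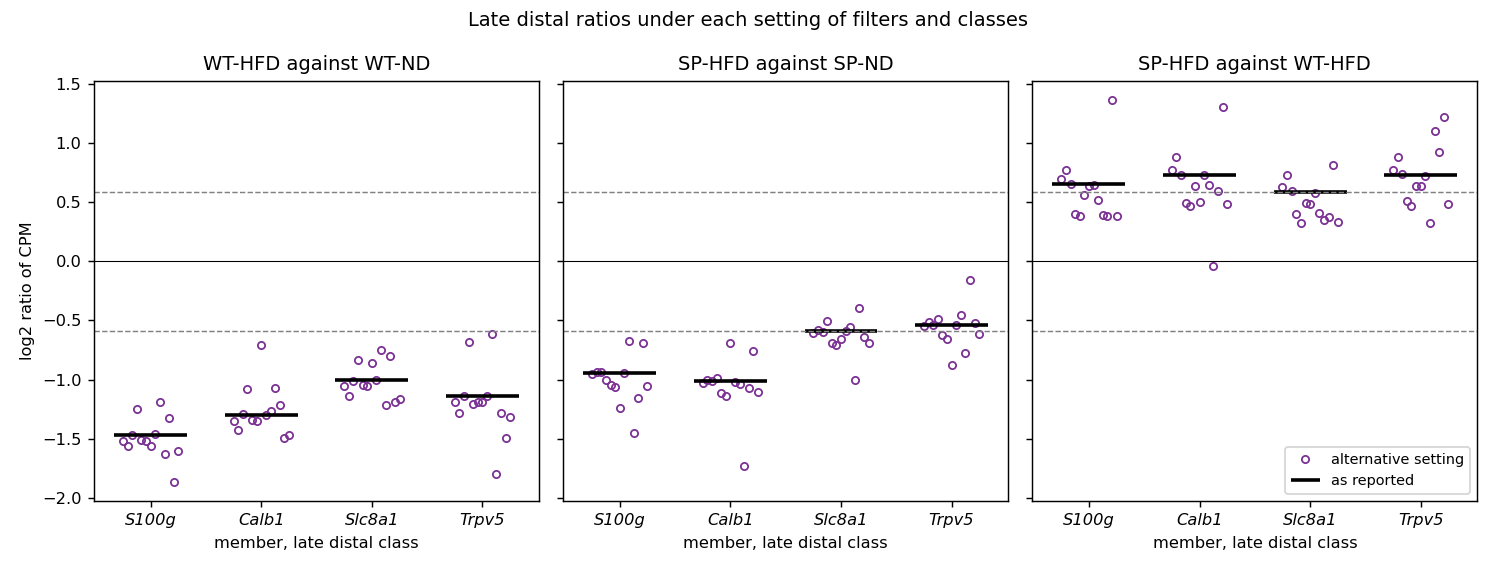
Log2 ratio of CPM (y axis) of 4 members in late distal cells (x axis), in 3 comparisons. Black bars are the ratios as reported, open circles are 13 alternative settings of filters and classes, and dashed lines mark 1.5-fold. For diet in WT all circles lie below the lower line, whereas for SP-HFD against WT-HFD circles fall on both sides of the upper line.

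These genes were also read outside the late distal class. In early distal cells S100g was at 4884 CPM in WT on ND and 1451 CPM on HFD, and 7027 CPM in SP on ND and 2531 CPM on HFD, with log2 ratios for diet of -1.75 in WT and -1.47 in SP. The early distal level came from few cells: in SP-ND the median cell was at 285 CPM and the 90th percentile at 18676. Trpv5 was also lower under HFD in early distal cells, at 15.3 against 6.66 CPM in WT and 22.1 against 9.47 CPM in SP. These levels rest on 31 to 86 UMIs per library. The log2 ratio of -1.20 in WT was -0.41 as the mean over cells. In SP, -1.23 was -0.27 in cells under 30% mitochondrial UMIs. Each ratio stayed past the fold in 12 of 13 alternatives. Those that divide late distal cells by Slc12a3 leave early distal cells unchanged and could not move these ratios. Calb1 was not past the fold in early distal cells, at 1404 and 1335 CPM in WT-ND and WT-HFD and 1796 and 1707 CPM in SP-ND and SP-HFD. The cells did not follow the pooled level: the median early distal cell was at 362 CPM of Calb1 on ND and 605 on HFD in WT, and at 286 on ND and 1046 on HFD in SP. The share of early distal cells with a Calb1 UMI, at 1000 UMIs per cell, was also higher under HFD, 52.7% against 41.4% in WT and 59.2% against 39.1% in SP.

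Principal and intercalated cells of the collecting duct held S100g at lower levels. Principal cells were at 7900 CPM in WT on ND and 2358 CPM on HFD, and 8104 CPM in SP on ND and 2308 CPM on HFD. Intercalated cells were at 3774, 1295, 3674 and 1136 CPM in the same order, so both HFD libraries were again below both ND libraries. Slc8a1 in principal cells was at 575, 343, 680 and 296 CPM. SP-HFD was not above WT-HFD for S100g or Slc8a1 in either collecting duct class, in contrast to its late distal cells. Calb1 in principal cells was at 1498, 823, 1915 and 1473 CPM, and there SP-HFD was above WT-HFD.

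S100g is abundant enough to appear as free RNA. T, NK and B cells, which do not make calbindin-D9k, held it at 253 CPM in WT on ND and 162 CPM on HFD, and 1217 CPM in SP on ND and 60.5 CPM on HFD. The SP-ND value rests on 338 UMIs in 98 cells, and free RNA and doublets were not told apart there. The thick limb levels were 322, 123, 272 and 145 CPM, below the T, NK and B cell level in WT-HFD and SP-ND but above it, with intervals that did not overlap, in WT-ND and SP-HFD. Free RNA and expression were not told apart in the thick limb. The late distal levels were at least 12305 CPM. With a share of free RNA subtracted, the counts of members past the fold for diet were unchanged in both genotypes.

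**Figure D4:**
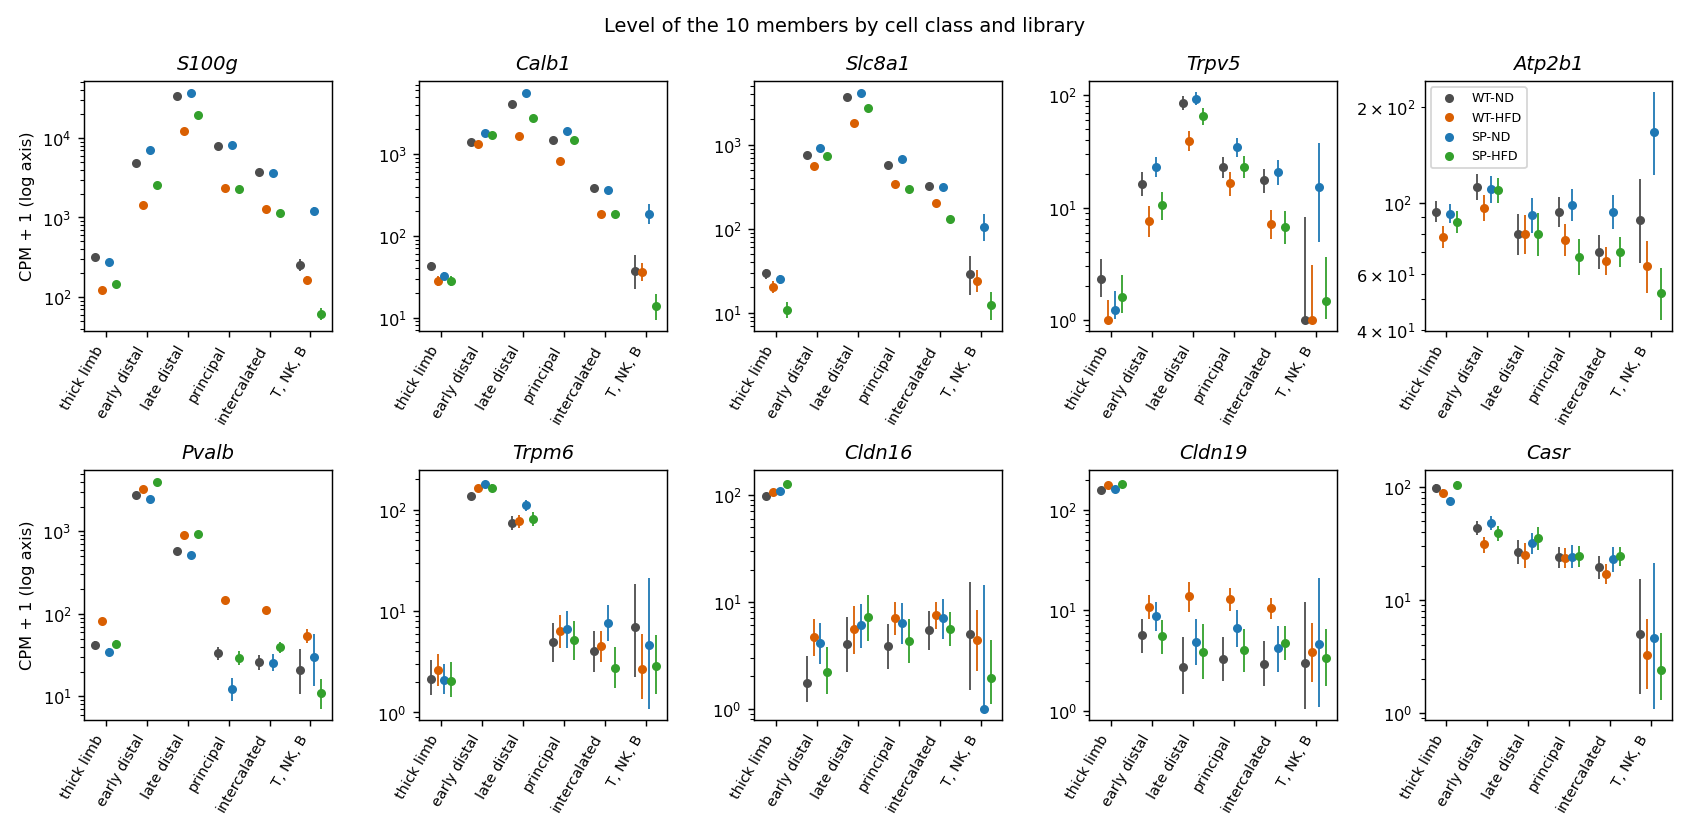
CPM + 1 on a log axis (y axis) by cell class (x axis), 1 panel per member, with the 4 libraries in colour and bars for the 95% counting interval. S100g, Calb1, Slc8a1 and Trpv5 peak in late distal cells, Pvalb and Trpm6 in early distal cells, and Cldn16, Cldn19 and Casr in the thick limb. T, NK and B cells stand for the free RNA background.

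Pvalb, the parvalbumin gene (chromosome 15, 78191114 to 78206400, minus strand), was the member past the fold upward under HFD in its own class, in SP. Early distal cells held 2746 CPM in WT on ND and 3247 CPM on HFD, and 2466 CPM in SP on ND and 4005 CPM on HFD. Both HFD libraries were above both ND libraries. The log2 ratio was 0.70 (0.66 to 0.74) in SP and 0.24 (0.21 to 0.28) in WT, and only the former passed the fold. It did so in all 13 alternatives. Those that divide late distal cells by Slc12a3 leave early distal cells unchanged and could not move this ratio. The median early distal cell was at 2550, 2564, 2395 and 3774 CPM, so the median was alike in both WT libraries. The share of early distal cells with a Pvalb UMI at 1000 UMIs per cell was 85.5%, 79.6%, 80.5% and 92.3%.

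Pvalb in other classes followed the library as well as the cell. Late distal cells held 583, 890, 512 and 937 CPM, and nearly all of it was in cells with Slc12a3 (1037 CPM in WT-ND, against 12.3 CPM in cells without). WT-HFD was an exception, with 286 CPM in the cells without Slc12a3. Principal cells of WT-HFD held 145 CPM and intercalated cells 110 CPM, against 11.4 to 38.3 CPM in those 2 classes of the other libraries, and T, NK and B cells of WT-HFD held 53.4 CPM against 9.84 to 28.8 CPM.

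Trpm6, the magnesium channel (chromosome 19, 18749983 to 18892511, plus strand), differed little in the early distal cells kept. Early distal cells held 135 CPM in WT on ND (124 to 147) and 161 CPM on HFD (150.1 to 173), and 177 CPM in SP on ND (164 to 191) and 164 CPM on HFD (152 to 177). WT-ND was the lowest, and the intervals of the other 3 overlapped each other. No early distal comparison passed the fold, and the log2 ratio furthest from 0 was 0.39 (0.23 to 0.56), for SP-ND against WT-ND. In early distal barcodes left out for their mitochondrial share, SP-HFD against WT-HFD was past it, at 0.90 (0.51 to 1.30) per non-mitochondrial UMI. The other comparisons of those barcodes were under it. Late distal cells held less, at 73.0, 75.9, 109 and 80.3 CPM, and every other class with at least 50 cells was at 10.8 CPM or less. The late distal log2 ratio was 0.58 (0.30 to 0.87) for SP-ND against WT-ND and -0.45 (-0.73 to -0.17) for diet in SP, both under the fold. In late distal barcodes left out for their mitochondrial share, these ratios were 1.27 (0.64 to 1.95) and -1.24 (-1.82 to -0.69), past the fold. In late distal cells without Slc12a3 they were 0.94 (0.27 to 1.65) and -1.38 (-2.33 to -0.53).

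In the cells kept, the 3 thick limb genes stayed within 1.5-fold in all 4 comparisons. Cldn16 (chromosome 16, 26463135 to 26482765, plus strand) was at 96.3 CPM in WT on ND and 105 CPM on HFD, and 109 CPM in SP on ND and 125 CPM on HFD. Its widest log2 ratio was 0.25 (0.11 to 0.39), for SP-HFD against WT-HFD. Cldn19, its partner in the pore (chromosome 4, 119255414 to 119262438, plus strand), was at 157, 175, 162 and 181 CPM. Both HFD libraries were above both ND libraries, with log2 ratios for diet of 0.16 (0.04 to 0.27) in WT and 0.17 (0.06 to 0.28) in SP. Every interval for Cldn19 left out a 1.5-fold difference.

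Casr, the receptor that senses calcium in blood (chromosome 16, 36493696 to 36562141, minus strand), varied more. Thick limb cells held 95.9 CPM in WT on ND and 86.5 CPM on HFD, and 73.7 CPM in SP on ND and 103 CPM on HFD. SP-ND was the lowest, and its interval overlapped none of the others. The log2 ratio for diet was 0.48 (0.33 to 0.64) in SP and -0.15 (-0.31 to 0.01) in WT, under the fold in both. In thick limb barcodes left out for their mitochondrial share, it was 0.87 (0.56 to 1.18) in SP, past the fold. In WT it was 0.07 (-0.29 to 0.43) there, both per non-mitochondrial UMI. Casr was not confined to the thick limb, at 29.8 to 46.6 CPM in early distal cells, 23.8 to 34.1 CPM in late distal cells and 16.0 to 23.2 CPM in the collecting duct classes, against 3.98 CPM or less in T, NK and B cells.

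Thick limb cells are known to fall into those that use claudin-10 for sodium and those that use claudin-16 for calcium and magnesium. The class was divided by a Cldn10 UMI after cells were thinned to 1000 UMIs. At that depth a cell without a Cldn10 UMI could still express Cldn10, so the division need not follow those types of cell. Cldn16 was at 76.8, 76.2, 69.9 and 88.9 CPM in cells with Cldn10 and at 134, 160, 155 and 131 CPM in cells without it. It was lower in the cells with Cldn10 in all 4 libraries, with intervals that overlapped in SP-HFD. Casr had the same order, at 84.8, 66.4, 40.8 and 63.5 CPM with Cldn10 and 118, 97.7, 74.2 and 118 CPM without. Cldn19 had the opposite order, at 196, 180, 175 and 183 CPM with Cldn10 and 136, 109, 128 and 140 CPM without. For Casr and Cldn19 the intervals of cells with and without a Cldn10 UMI overlapped in every library.

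**Figure D5:**
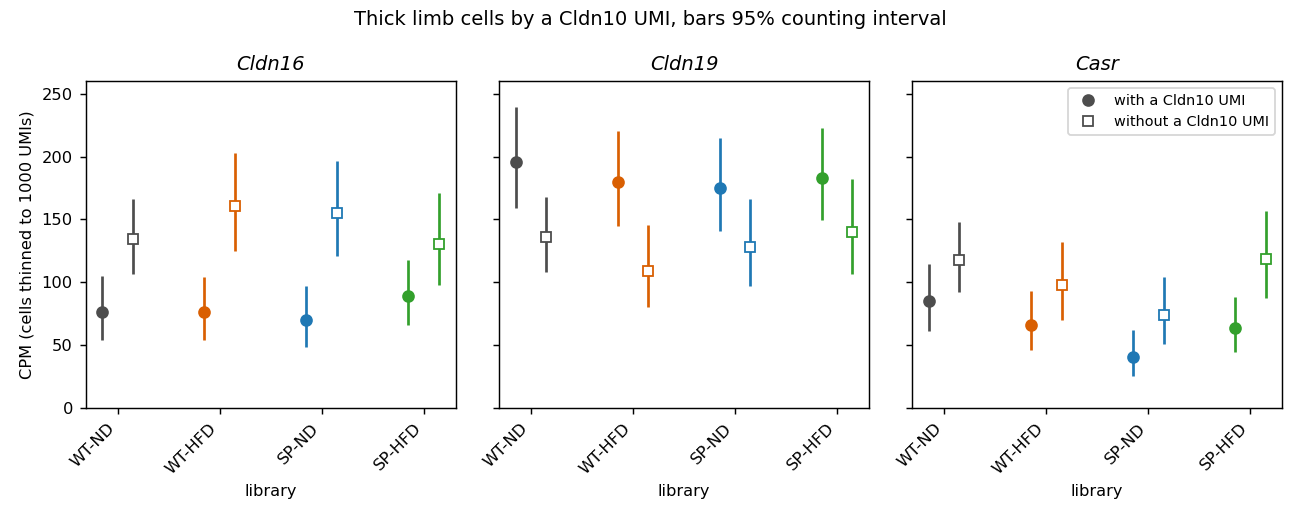
CPM (y axis) of Cldn16, Cldn19 and Casr in thick limb cells thinned to 1000 UMIs, by library (x axis). Filled circles are cells with a Cldn10 UMI, open squares are cells without, and bars are 95% counting intervals. Cldn16 and Casr are lower in the cells with Cldn10 in each library, and Cldn19 is higher.

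Members of 1 class were found at low levels in another. Cldn19 in late distal cells was at 1.74 CPM in WT on ND and 12.7 CPM on HFD, and 3.87 CPM in SP on ND and 2.88 CPM on HFD, from 4 to 31 UMIs. In the cells kept, the WT-HFD value was the highest, as it was for the thick limb markers Slc12a1 and Umod. Distal cells with Slc12a1 at the class minimum had been left out by then. With mixed cells kept, which also keeps those cells, Cldn19 was higher in SP-HFD than in WT-HFD, at a log2 ratio of 0.67.

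A list of 30 other genes of calcium and magnesium handling was counted in the same way, with 24 to 27 of them above the count minimum in each comparison of the 3 classes. In late distal cells, 3 were higher and 5 lower under HFD in WT, and 3 were higher and 2 lower in SP, where 12.6% of all genes were higher and 5.11% lower in WT, and 6.69% and 1.85% in SP. Their median log2 ratio was -0.18 in WT and 0.05 in SP, against 0.05 and 0.12 for all genes. Egf, the growth factor known to stimulate TRPM6, was at 904 CPM in WT-ND and 1671 CPM in WT-HFD, and at 901 CPM in SP-ND and 1917 CPM in SP-HFD. The other ratios furthest from 0 in WT were those of Cldn10, a thick limb claudin (24.3 against 124 CPM, ND and HFD in turn), Cldn2, a proximal tubule claudin (17.4 against 31.6 CPM), and Slc41a3, a magnesium transporter (10.0 against 4.51 CPM). The summed thick limb and proximal tubule markers were highest in the same library, and their part in these ratios was not tested. In SP they included those of Stc1, which encodes stanniocalcin-1 (24.0 against 14.9 CPM), and Bsnd, a chloride channel subunit (68.1 against 107 CPM). Vdr, the vitamin D receptor, was singled out after its values were seen. It was at 242 and 159 CPM in WT on ND and HFD and at 285 and 186 CPM in SP, with log2 ratios of -0.60 and -0.62. Kl, which encodes Klotho and was singled out in the same way, was at 2093 and 1235 CPM in WT, a log2 ratio of -0.76, and was not past the fold in SP.

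In early distal cells, 5 of the 30 were higher and 0 lower under HFD in WT, and 3 were higher and 1 lower in SP, where 5.89% of all genes were higher and 4.05% lower in WT, and 5.0% and 3.22% in SP. Pcbd1, which encodes a pterin dehydratase, was at 213 and 388 CPM in WT and 216 and 503 CPM in SP, ND and HFD in turn. Slc41a3 was at 12.9 and 28.8 CPM in WT and 13.9 and 32.2 CPM in SP. In thick limb cells, 1 was higher and 1 lower under HFD in each genotype, where 3.63% of all genes were higher and 4.45% lower in WT, and 4.65% and 3.63% in SP. Cldn14, a claudin that closes the claudin-16 pore, was at 1.89 CPM in WT on ND and 5.10 CPM on HFD, and 10.8 CPM in SP on ND and 3.24 CPM on HFD, so that its diet ratios had opposite signs, 1.43 in WT and -1.74 in SP, from 13 to 98 UMIs per library. For genotype, 1 of the 30 was higher and 1 lower in each class on ND, and on HFD 4 were higher and 2 lower in late distal cells, 0 and 2 in early distal cells, and 0 and 1 in the thick limb. The shares of all genes in these comparisons are those given for the members.

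The genes most like 9 of the members in pattern were found by Pearson r of log2(CPM + 1) over 54 values, 1 per class and library with at least 10 cells, among 7609 genes. The values share libraries and depth, so r is a description. Slc12a1, Slc12a3 and Ppp1r1b are markers that set the classes. Their high level in a class follows from the assignment, and so in part does a high r with them. Calb1 was nearest to Pgam2 (0.96) and S100g (0.95), S100g to Calb1 and Trpv5 (0.90), and Slc8a1 to Calb1 (0.88) and Clu (0.87). Trpv5 was nearest to Mymx (0.91) and Calb1 (0.91). Pvalb was nearest to Uroc1 (0.92) and Slc12a3 (0.89), and Trpm6 to Slc12a3 (0.86) and Sall3 (0.85). Cldn19 was nearest to Slc12a1 (0.92) and Tmem207 (0.88), and Cldn16 to Slc12a1 (0.86) and Ppp1r1b (0.83). Atp2b1 was nearest to Acap2 (0.89) and Tbl1xr1 (0.87).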

How the data were processed

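scRNA-Seq was performed on whole kidneys, 1 library per condition. The authors aligned the reads with Cell Ranger and deposited raw counts, which are whole numbers of UMIs for each gene in each barcode. The submitters' processing notes name Cell Ranger 2.1.1 and genome mm10, and the file header names cellranger 6.1.2, and how strand was used in counting is not given in the sources used here. Every deposited barcode had at least 500 UMIs, and the values are whole numbers. The study removed doublets with scDblFinder and by marker combinations, and its supplement names a SoupX correction of ambient RNA. Whether the deposited counts precede both steps is not stated in the sources used here.

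Cells with 200 to 5000 genes and under 50% mitochondrial UMIs were kept. A cell took the class, of 14, with the best marker score, if it had at least 3 marker UMIs and at least 2 times the library mean. The thick limb class also needed a UMI of Slc12a1, and the early distal class a UMI of Slc12a3. A cell whose best class was early or late distal became late distal if its late markers passed this minimum, and early distal if not. A cell whose second class scored above 0.5 of the best was left out as mixed, as was a distal cell with Slc12a1 or a thick limb cell with Slc12a3 at that minimum. The latter rule was added after levels had been seen. For a distal cell, the other distal class and the principal class did not count as a second class. Nor did the late distal class for a principal cell. No doublet caller was run, and in simulated doublets these rules missed late distal cells joined with proximal tubule, early distal or principal cells. UMIs were pooled by class, and CPM has exact Poisson 95% intervals, ratios exact conditional binomial intervals, shares of cells Clopper-Pearson intervals. Genes with at least 30 UMIs over both libraries were compared. Intervals cover counting error only. Ratio and class steps were tested on simulated data.

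The members and gene lists were chosen with earlier results of these data known. The named genes are the 10 members, up to 4 others per class and comparison with the largest ratio past the fold, and the 2 genes nearest to each member in pattern. Some genes that this rule names are not reported here. Vdr, Kl and Atp2b4 were outside this rule and were chosen after their values were seen. A set of 10 alternatives of filters, classes, scaling and count minimum was planned, and 4 of the distal classes were added after seeing the data. Gene positions are from the GENCODE annotation of GRCm38, which is mm10. Promoters were matched by symbol for 9 of 10 members in RefSeq, all but Calb1. Intervals came from scipy 1.17.1, tables from pandas 2.3.3 under Python 3.11.15 with numpy 2.4.6, and plots from matplotlib 3.10.9.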

Additional observations from a re-analysis of the deposited data

Results flagged for a closer look

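Barcodes left out for their mitochondrial share also carried S100g, in data that the comparisons did not use. Among late distal barcodes at 50% mitochondrial UMIs or more, S100g was at 38229 in WT-ND and 19945 in WT-HFD, and at 43472 in SP-ND and 18492 in SP-HFD, counted per 1000000 non-mitochondrial UMIs. The HFD barcodes were again below the ND barcodes in both genotypes, with log2 ratios of -0.94 (95% interval -0.98 to -0.90) in WT and -1.23 (-1.27 to -1.19) in SP. Calb1 in these barcodes had log2 ratios of -0.60 and -1.06. Slc8a1 did not follow in WT, at 0.01 (-0.08 to 0.11), and was at -0.53 in SP. For SP-HFD against WT-HFD the order of the cells in the comparisons was reversed, with log2 ratios of -0.11 (-0.16 to -0.06) for S100g, -0.34 for Calb1, -0.46 for Slc8a1 and -0.45 (-1.18 to 0.28) for Trpv5. The mitochondrial filter left out more barcodes in the SP libraries than in the WT libraries, and its part in that reversal was not tested.

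Some of the 30 other genes had ratios past the fold in opposite directions. Cldn14 in the thick limb was higher under HFD in WT, at a log2 ratio of 1.43, and lower in SP, at -1.74. Cldn10 in early distal cells was at 2.01 for diet in WT and -1.497 in SP. For genotype it was at 1.09 on ND and -2.42 on HFD. Its level there was 16.3 CPM in WT on ND and 65.7 CPM on HFD, and 34.7 CPM in SP on ND and 12.3 CPM on HFD. The thick limb marker Slc12a1 had the same order of libraries in early distal cells, at 52.8, 105, 100.1 and 40.0 CPM. The other thick limb markers did not. Umod was at 2308, 3806, 2475 and 5219 CPM, highest in SP-HFD, and Ppp1r1b was at 4.62, 4.72, 5.66 and 2.84 CPM. The part of thick limb RNA in the Cldn10 ratios was not tested. These differences between groups were not tested, since each condition is 1 library.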

How the results depend on the processing

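The number of members past the fold for diet was the same or within 1.5 times under all alternatives in both genotypes. Of 30 called ratios of members in the 3 tubule classes, 14 stayed past the fold and 26 kept their sign in the alternatives that gave a ratio, which were 8 to 13 per ratio. Of the 14, 10 had all 13 alternatives, and the other 4 were S100g in the thick limb for both diet comparisons, Pvalb there for diet in WT and Cldn19 in late distal cells for diet in WT. For S100g in the thick limb for diet in SP, the 8 alternatives that gave a ratio did not include the subtraction of free RNA. For early distal ratios, the alternatives that divide late distal cells by Slc12a3 leave the cells unchanged, so they could not move a ratio. The count of members higher in SP-HFD than in WT-HFD, 4 as reported, was 0 with mixed cells kept, 0 with at least 5 marker UMIs and 4 times the library mean, 0 with cells of both defining markers kept, 2 when centred on the median gene, 2 as the mean over cells, 1 in late distal cells with Slc12a3, 1 in those without it, and 2 with early and late distal cells pooled. Keeping mixed cells also kept the cells of both defining markers, so those alternatives overlap. For SP-ND against WT-ND the count went from 0 to 1 in cells without Slc12a3. The ratios that changed sign were Calb1 in the thick limb for diet in WT (0.19 with mixed cells kept), Pvalb in late distal cells for diet in SP (-0.15 without Slc12a3), Calb1 in late distal cells for SP-HFD against WT-HFD (-0.037 without Slc12a3) and Cldn19 in the same cells and comparison (0.67 with mixed cells kept, 0.62 with cells of both defining markers kept). The cause was not tested. Of all 1352 alternative ratios, 1038 moved by less than their counting interval. The 1038 include early distal ratios under the division of late distal cells by Slc12a3, which could not move. The median log2 ratio of all late distal genes for diet in SP was 0.12. No paired analysis was possible because each condition is 1 library and the labels give no replicate numbers, and for the same reason no replicate could be left out. Depth limits Trpv5, Atp2b1 and the members outside their own class, which rest on few UMIs.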
